A study of Mus musculus with 3 samples.

Results

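Neutrophil granule genes and the calprotectin pair S100a8 and S100a9 were followed in single-cell RNA sequencing of mouse nasal mucosa. The 9 genes, chosen by name out of 55357 in the deposited feature lists, were Elane (ENSMUSG00000020125), Mpo (ENSMUSG00000009350), Prtn3 (ENSMUSG00000057729), Ctsg (ENSMUSG00000040314), Ngp (ENSMUSG00000032484), Camp (ENSMUSG00000038357), Mmp8 (ENSMUSG00000005800), S100a8 (ENSMUSG00000056054) and S100a9 (ENSMUSG00000056071). All 9 symbols were present in all 3 libraries. They had been picked because of how they behaved in these libraries, so their differences between groups are given as a description and no test is attached to them.

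The mice were C57BL/6 animals (C57BL/6J in the sample labels), and each group held males and females in equal numbers per the design text. One group received papain (20 µg), a cysteine protease of papaya that raises allergic inflammation, in the nose, together with lonidamine (LND) by gavage at 10 mg/kg, a compound that blocks hexokinase and the transporters of lactate and pyruvate. A second group received the same papain with PBS by gavage, as a model of eosinophilic chronic rhinosinusitis. The controls received PBS in the nose. Each group's mice were pooled into 1 library, so no difference below has a replicate check. How many mice entered a pool, and how old they were, are details not given in the sources used here.

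Neutrophils store their proteases and antimicrobial proteins in granules that are filled one kind after another while the cell matures, mostly in bone marrow. Azurophil granule genes (Elane, neutrophil elastase; Mpo, myeloperoxidase, which makes hypochlorous acid; Prtn3, proteinase 3; Ctsg, cathepsin G) are transcribed in promyelocytes, specific granule genes (Ngp, a cystatin-like protein; Camp, the cathelicidin precursor; Mmp8, neutrophil collagenase, which comes late and is counted below with the gelatinase granule genes) in the stages that follow, and these messages are largely gone from the mature cell that circulates and enters tissue. S100a8 and S100a9 encode the subunits of calprotectin, a calcium- and zinc-binding protein that fills the cytosol of neutrophils and whose messages persist in mature cells.

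The sequences before the start of these genes are shown because 1 short letter pattern stood before all 4 azurophil genes, the group with most of its UMIs in precursors below. For 4 azurophil genes, 1 specific granule gene and 1 calprotectin gene, the 250 bases upstream of the start are given 5′ to 3′ on the gene's strand, from RefSeq on build GRCm38.p6, which is not the build of the count files. They lie at chr10:79886062-79886311 (plus strand) for Elane, chr11:87793534-87793783 (plus) for Mpo, chr10:79879417-79879666 (plus) for Prtn3, chr14:56102575-56102824 (minus) for Ctsg, chr9:110419558-110419807 (plus) for Ngp and chr3:90668821-90669070 (plus) for S100a8. Capitals mark GAGGAA, letters within the binding sequence of the myeloid factor PU.1, and TTNNGNAA, a form of the sequence bound by C/EBP factors, on either strand.
Elane: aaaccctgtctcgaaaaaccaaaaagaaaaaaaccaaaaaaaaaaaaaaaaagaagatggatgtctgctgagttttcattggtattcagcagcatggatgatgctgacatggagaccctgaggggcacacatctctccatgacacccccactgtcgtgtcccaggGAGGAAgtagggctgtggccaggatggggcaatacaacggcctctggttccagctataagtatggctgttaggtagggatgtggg
Mpo: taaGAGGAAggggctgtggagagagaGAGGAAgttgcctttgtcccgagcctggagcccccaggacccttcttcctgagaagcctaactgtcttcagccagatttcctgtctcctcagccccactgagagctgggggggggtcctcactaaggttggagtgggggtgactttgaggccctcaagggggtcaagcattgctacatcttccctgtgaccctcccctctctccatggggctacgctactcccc
Prtn3: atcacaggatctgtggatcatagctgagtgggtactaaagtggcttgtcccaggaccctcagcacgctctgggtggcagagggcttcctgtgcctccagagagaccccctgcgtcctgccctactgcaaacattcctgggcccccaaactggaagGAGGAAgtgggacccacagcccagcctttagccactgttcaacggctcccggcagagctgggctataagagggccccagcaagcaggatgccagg
Ctsg: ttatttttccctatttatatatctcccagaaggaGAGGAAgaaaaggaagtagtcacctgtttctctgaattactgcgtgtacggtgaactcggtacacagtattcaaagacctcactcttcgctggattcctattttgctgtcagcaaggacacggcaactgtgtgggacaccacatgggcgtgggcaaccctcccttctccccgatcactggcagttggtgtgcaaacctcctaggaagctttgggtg
Ngp: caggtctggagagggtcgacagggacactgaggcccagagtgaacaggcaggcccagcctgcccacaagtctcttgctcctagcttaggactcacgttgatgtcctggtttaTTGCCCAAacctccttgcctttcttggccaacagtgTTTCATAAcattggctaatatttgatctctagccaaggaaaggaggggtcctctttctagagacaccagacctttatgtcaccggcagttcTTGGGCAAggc
S100a8: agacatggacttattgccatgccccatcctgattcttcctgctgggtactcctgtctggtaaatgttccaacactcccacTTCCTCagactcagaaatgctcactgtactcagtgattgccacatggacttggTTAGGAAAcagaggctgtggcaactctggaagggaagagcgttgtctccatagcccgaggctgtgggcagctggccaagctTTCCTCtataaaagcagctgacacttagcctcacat
GAGGAA stood on the gene's own strand in all 4 azurophil promoters, with 2 copies before Mpo and 1 before each of Elane, Prtn3 and Ctsg, while TTNNGNAA was in none of the 4. S100a8 had 2 copies of GAGGAA on the opposite strand, Mmp8 had 1, and S100a9, Ngp and Camp had none. TTNNGNAA was found 3 times before Ngp, 2 times before S100a9 and before Mmp8, 1 time before S100a8 and not before Camp. No match overlapped another. TTNNGNAA thus stood before each gene outside the azurophil group but Camp, and GAGGAA was not confined to the azurophil genes. Among 32851 RefSeq promoters cut to the same 250 bases, 23.3% held GAGGAA and 36.8% held TTNNGNAA, beside 6 and 4 of the 9 genes. Either pattern is common, and a match describes the letters only.

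The measured quantity is the unique molecular identifier (UMI) count, with 1 UMI for each captured message, and CPM is a gene's count over a set of barcodes scaled by all UMIs of that set. After filtering, the libraries of papain with lonidamine, papain and PBS held 11887, 10524 and 9378 barcodes, with deposited totals of 89164040, 86197965 and 82399462 UMIs and a median of 5823, 6547 and 7352.5 UMIs per kept barcode. Pairs of libraries shared between 22 and 38 barcode sequences. The papain library carries the library name Fibroblast in its description, while its title names the disease model, and it was used under its treatment label. Assignable barcodes outside the neutrophils were 82.9% female with lonidamine, 72.8% with papain and 56.9% with PBS. Another 2028 of 10999, 2239 of 9828 and 2402 of 9121 barcodes could not be assigned. A male call needed a UMI of a Y-linked gene and none of Xist, and barcodes do not count mice. The shares thus differed between libraries, but the equal sexes of the design cannot be checked from them. Square brackets give 95% intervals, exact (Clopper-Pearson) for shares, and like the floors of 3 counts used at 0 they cover counting error only.

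Barcodes were clustered without the 9 genes and named from fixed markers, so that each class is like the type named. Precursors were 80 barcodes with papain and lonidamine, 5 with papain and 8 with PBS. That is 0.673% [0.534, 0.837], 0.0475% [0.0154, 0.111] and 0.0853% [0.0368, 0.168] of the kept barcodes. All 15 precursor markers had UMIs in them, and Cebpe, the transcription factor of the specific granule stage, was found in 72 of the 93 pooled barcodes, with the proliferation genes Mki67 or Top2a in 82. Mature neutrophils numbered 808 with lonidamine, 691 with papain and 249 with PBS, or 6.80%, 6.57% and 2.66% of kept barcodes. Their median depth of 1401, 1505 and 1947 UMIs was well below the 7512, 9283 and 11355 UMIs of the precursors.

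Within the mature class, re-clustering separated subclusters that are named here by a leading gene. The Siglecf-led and Il23a-led ones, 640 and 351 of the 1748 mature barcodes, each carried 10 of the 15 mature markers but had a median depth more than 3-fold below that of their libraries and no marker among their 10 leading genes, so they bear no name of their own and stay in the class of the cluster they were split from. The Ly6g-led one held 166 barcodes with lonidamine, 13 with papain and 6 with PBS, or 18.7% [16.2, 21.4], 1.87% [0.998, 3.17] and 2.33% [0.861, 5.01] of all neutrophil barcodes. It carried 12 of the 15 precursor markers and all 15 mature markers in at least 10% of its barcodes, with the specific granule genes Ltf at 12102 CPM and Lcn2 at 13597 CPM, and Mki67 in only 15 of its 185 barcodes. The Il23a-led subcluster went the other way between the papain groups, with 117, 229 and 5 barcodes, and the Siglecf-led and Asprv1-led ones held 260, 239 and 141, and 259, 204 and 95. Precursors and the Ly6g-led subcluster were thus the sets of neutrophil barcodes with a larger share in the lonidamine library than in both others. Their intervals did not overlap, but these cover counting error in 1 pooled library per group and not the spread between mice. In the Il23a-led subcluster Mki67 was found in 89 of 351 barcodes while Top2a had 3 UMIs, so Mki67 alone is not read as a sign of proliferation.

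**Figure D1:**
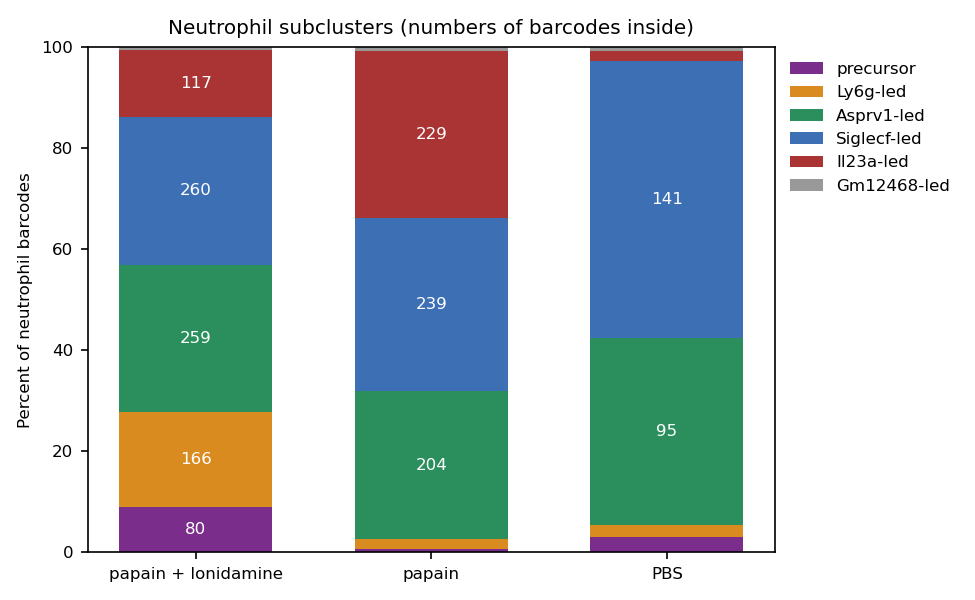
Share of neutrophil barcodes (percent, vertical axis) in each subcluster for the libraries of papain with lonidamine, papain and PBS, with the number of barcodes printed inside the larger blocks. Precursors and the Ly6g-led subcluster make up 9.01% and 18.7% with lonidamine, and at most 3.11% and 2.33% in the other libraries.

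The sex of these barcodes and the counts of some other cell types also differed between the libraries, not all in the same direction. Of the precursors that could be assigned a sex, 78 were female and 0 male with lonidamine, 3 and 1 with papain, and 6 and 1 with PBS. Among Ly6g-led barcodes the numbers were 88 and 0, 4 and 1, and 2 and 0. Erythroid barcodes numbered 89 with lonidamine, 6 with papain and 3 with PBS, and the 6 erythroid markers summed to 733, 86.2 and 65.9 CPM over all barcodes, each of the 6 higher with lonidamine than with papain. The bone or cartilage list of 7 markers summed to 195, 146 and 109 CPM, with 5 of 7 higher with lonidamine than with papain. The squamous epithelial list of 8 markers summed to 561, 229 and 52.1 CPM, with 7 of 8 higher with lonidamine than with papain. Monocyte markers, among them Chil3, which is also a neutrophil precursor marker, summed to 1009, 807 and 661 CPM. Of these 10 markers 9 were higher with lonidamine than with papain, but only 3 were higher than with PBS. Monocyte barcodes numbered 145, 102 and 412, and basophil barcodes 5, 11 and 19, with lonidamine, papain and PBS. Mast cell or basophil markers gave 37.0, 25.6 and 30.1 CPM, with 7 of 10 higher with lonidamine than with papain and 6 than with PBS. Eosinophil markers gave 8.09, 4.55 and 4.29 CPM, with 3 of 7 higher than with papain and 2 than with PBS. Any difference counted as higher here. The share of all genes higher by that rule was not counted, so nothing is read from these counts. The part of sex and of these cell types in the granule gene values was not tested.

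Azurophil granule genes had most of their UMIs in precursors. Elane had 2456 UMIs in the precursors of the lonidamine library, 512 in those of the papain library and 1790 in those of the PBS library, and was detected in 34 of 80, 3 of 5 and 5 of 8 barcodes. Its level there was 3864 CPM with lonidamine, 10369 CPM with papain and 15179 CPM with PBS. The precursors of the lonidamine library thus had the most Elane UMIs, from the most barcodes, and the lowest CPM.

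Mpo gave 1879, 306 and 518 UMIs in the same precursors (2956, 6197 and 4393 CPM), in the order lonidamine, papain and PBS. Prtn3 gave 2028, 509 and 1140 UMIs (3191, 10308 and 9667 CPM). For Ctsg the values were 600, 260 and 577 UMIs (944, 5266 and 4893 CPM). In all 3 of these genes, as in Elane, the lonidamine precursors had the lowest CPM, while the papain and PBS values rest on 5 and 8 barcodes and 1 PBS barcode alone held 739 of the Elane UMIs.

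The precursors were not uniform. Elane was found in 42 of the 93 pooled barcodes, all 4 azurophil genes in 30, Elane without Ngp in 16, Ngp without Elane in 42 and both in 26. The remaining precursor barcodes had neither Elane nor Ngp, and most of them had no S100a8 UMI. They lay in all 3 libraries and are part of the precursor counts. The 10 highest barcodes of each gene carried 63.0% of Elane, 56.1% of Mpo, 61.1% of Prtn3 and 76.8% of Ctsg UMIs, against 27.1% of Ngp and 25.6% of S100a8 UMIs. The 31 barcodes with the highest Elane level had 13880 CPM of Elane, 7725 of Mpo, 10480 of Prtn3 and 4200 of Ctsg, while Ngp was at 4363 and S100a8 at 28661 CPM. The 51 barcodes without an Elane UMI had Ngp at 34597 CPM and S100a8 at 88284 CPM, detected in 42 and 43 of them. Lactoferrin (Ltf), a specific granule gene that was not one of the 9, was at 217 CPM in the 31 barcodes with the highest Elane, 2423 in the other 11 with Elane and 9730 in the 51 without. Mki67 was found in 24 of 31, 10 of 11 and 43 of 51 barcodes of the same sets, and Top2a in 22, 8 and 43. Proliferation transcripts were thus found in precursor barcodes with and without Elane.

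**Figure D2:**
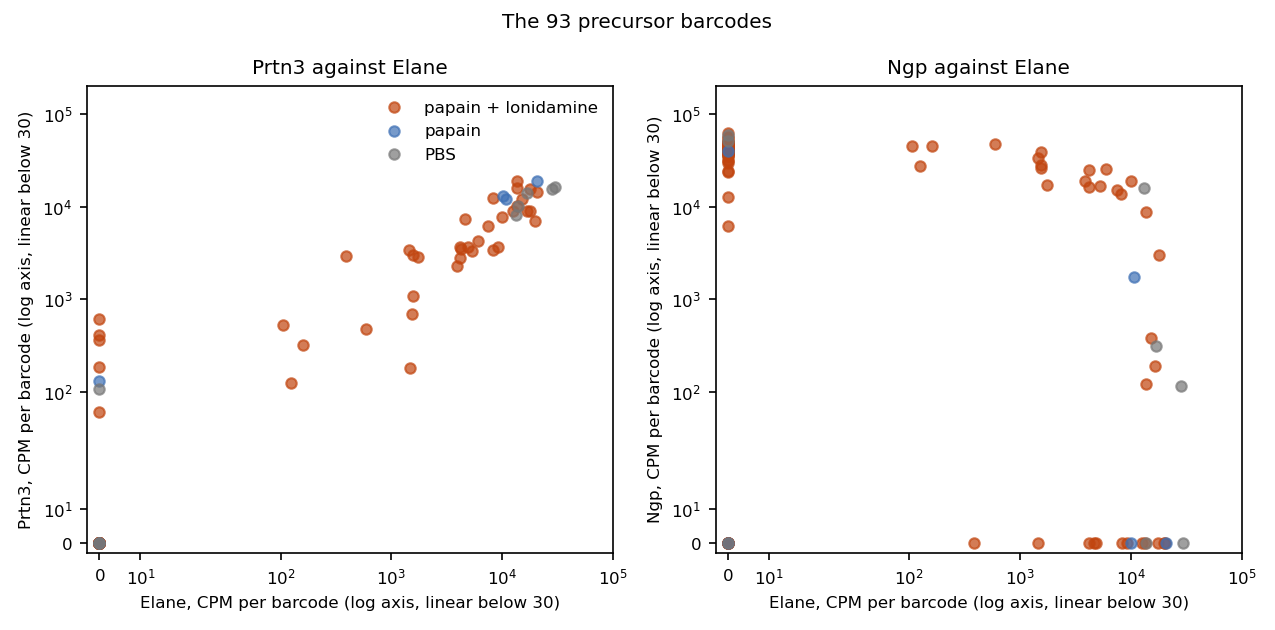
Each point is 1 of the 93 precursor barcodes, coloured by library (papain with lonidamine, papain, PBS), with Elane CPM on the horizontal axis and Prtn3 (left) or Ngp (right) CPM on the vertical axis, all logarithmic and linear below 30. Prtn3 was high where Elane was high, while 42 barcodes had Ngp without Elane, 16 had Elane without Ngp, and 26 had both.

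Mature neutrophils had few azurophil transcripts. Elane had 112 UMIs there with lonidamine and 0 with papain and with PBS, where 3 counts would be 2.64 and 5.48 CPM. Mpo had 30, 0 and 0, Ctsg 5, 0 and 0, and Prtn3 92, 16 and 11 UMIs. A single barcode of the lonidamine library held 108 of the 112 Elane, 28 of the 30 Mpo, 81 of the 92 Prtn3 and all 5 Ctsg UMIs. It lay in the Asprv1-led subcluster and had 41075 UMIs in all, far above the class median. Without it Prtn3 stood at 11 UMIs with lonidamine against 16 with papain. In the Ly6g-led subcluster, Mpo, Prtn3 and Ctsg had 0 UMIs in all 3 libraries and Elane had 2, 0 and 0.

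Precursors carried 72.1% [71.2, 73.0] of all UMIs of the 4 azurophil genes with lonidamine, 79.5% [77.7, 81.3] with papain and 69.0% [67.8, 70.1] with PBS. Mature neutrophils carried 2.48%, 0.802% and 0.188%, and all other barcodes 25.4%, 19.6% and 30.9%. Outside the neutrophils, 26 barcodes with at least 10 azurophil UMIs held 3330 UMIs, of which 18, 1 and 7 barcodes were in the lonidamine, papain and PBS libraries. Monocytes were 14 of these 26, with 1656 UMIs. A single lonidamine barcode with 564 azurophil UMIs lay in an unnamed cluster that carried basal epithelial markers beside precursor genes, and single dendritic and endothelial barcodes of that library with 464 and 87 azurophil UMIs also held 590 and 645 UMIs of S100a8 and S100a9.

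The 14 monocyte barcodes were picked for their azurophil UMIs, so only other genes are set beside the remaining 645 monocytes. Ngp was found in 1, Camp in 0 and Cebpe in 2 of the 14, against 7, 8 and 12 of the 645. S100a8 was at 885 CPM in the 14 and 124 CPM in the 645. Detection moves with depth, which was not matched between these sets, so CPM is given beside it for the next genes. Mki67 was found in 13 of the 14, against 43 of the 645 (664 and 52.5 CPM). The monocyte regulator Irf8, Ly6c2 and F13a1 were found in all 14, against 296, 433 and 389 of the 645. Their levels were 674, 3380 and 1162 CPM in the 14 and 167, 890 and 427 CPM in the 645. The macrophage marker Csf1r went the other way, in 9 of the 14 against 573 of the 645 (90.5 and 590 CPM). The neutrophil precursor marker Ms4a3 was found in 7 of the 14 and 0 of the 645, so the markers were mixed. Basophils, relatives of mast cells, gave 29, 0 and 130 UMIs of Ctsg from 2, 0 and 3 barcodes, with Elane at 0 in all 3 libraries. In the genome Ctsg lies between the granule protease genes Mcpt8 and Gzme.

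Prtn3 UMIs were also counted in classes where its neighbour Elane had few. In immature olfactory neurons Prtn3 gave 102, 185 and 289 UMIs (17.7, 23.0 and 26.8 CPM) with lonidamine, papain and PBS, and was found in 9.78%, 15.1% and 19.6% of barcodes. Elane gave 5, 2 and 4 UMIs in the same barcodes. The number of Prtn3 UMIs for each Elane UMI was 20.4, 92.5 and 72.3 there, against 0.826, 0.994 and 0.637 in precursors. Mature olfactory neurons had 4.34, 3.41 and 2.62 CPM of Prtn3, below the immature ones in each library. Globose basal cells had 10.9, 8.19 and 17.1 CPM of Prtn3, with Elane at 0, 0 and 0.518 CPM. The 645 monocytes with under 10 azurophil UMIs had Prtn3 in 67 barcodes (26.4 CPM) and Elane in 9 (5.04 CPM). Plppr3, the next coding gene on the other side of Prtn3, was at 228, 196 and 169 CPM in immature neurons and at 27.4 CPM in the pooled precursors. Whether reads of Plppr3 were counted as Prtn3 was not tested.

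Specific granule genes were high in precursors and in the Ly6g-led barcodes. Ngp had 15333, 413 and 1254 UMIs in the precursors of the lonidamine, papain and PBS libraries (24123, 8364 and 10634 CPM) and 17698, 758 and 449 UMIs in Ly6g-led barcodes (35148, 16936 and 19767 CPM). It was detected in 164 of 166, 13 of 13 and 5 of 6 Ly6g-led barcodes. Camp had 21992, 494 and 2115 UMIs in precursors (34600, 10005 and 17935 CPM) and 16941, 1009 and 328 UMIs in Ly6g-led barcodes (33645, 22544 and 14440 CPM). Both genes had their highest level in both kinds of barcode in the lonidamine library. Of the papain precursors' 494 Camp UMIs, 489 came from 1 barcode.

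Other mature neutrophils held few of these messages. Pooled over libraries, Ngp stood at 21173 CPM in precursors, 33109 in the Ly6g-led, 609 in the Asprv1-led, 48.1 in the Siglecf-led and 5.53 in the Il23a-led subcluster, and Camp at 30640, 32011, 1793, 25.8 and 12.9 CPM. The Asprv1-led values came almost wholly from the lonidamine library, with 472, 1 and 0 UMIs of Ngp and 1390, 2 and 0 of Camp. Of the 1511 Camp UMIs in mature neutrophils of the lonidamine library outside the Ly6g-led subcluster, 1269 came from 1 barcode, the one that also held most of the Elane UMIs of that class. Outside the neutrophils, 5782 UMIs of Ngp and Camp together (7.24%) were found with lonidamine, against 57 (2.08%) with papain and 87 (2.05%) with PBS, with up to 403 Ngp and 633 Camp UMIs in 1 barcode. The unnamed cluster with basal epithelial markers, in which 7, 4 and 7 barcodes lay, held 1145, 0 and 0 of the Ngp and 1240, 0 and 0 of the Camp UMIs.

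The neutrophil sets were not ordered in time. Mmp8 was scarce in precursors and highest in the Ly6g-led subcluster. It had 10, 0 and 0 UMIs in the precursors of the lonidamine, papain and PBS libraries, where 3 counts would be 60.8 CPM with papain and 25.4 CPM with PBS. In Ly6g-led barcodes it had 1185, 95 and 116 UMIs, or 2353, 2123 and 5107 CPM, and was detected in 122 of 166, 11 of 13 and 6 of 6. Its pooled level was 2445 CPM there, 203 in the Asprv1-led, 19.8 in the Siglecf-led and 12.9 in the Il23a-led subcluster. The Ly6g-led barcodes thus held 80.7%, 55.6% and 42.3% of all Mmp8 UMIs. Outside the neutrophils Mmp8 was found in 109 of the 645 monocytes with few azurophil UMIs (16.9%, 54.2 CPM), against 0.0714%, 0 of 1222 and 0.0378% of mature olfactory neurons with lonidamine, papain and PBS. In PBS, where monocytes were 412 barcodes against 145 with lonidamine and 102 with papain, barcodes outside the neutrophils held 45.3% of the Mmp8 UMIs, against 10.3% and 18.1%.

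**Figure D3:**
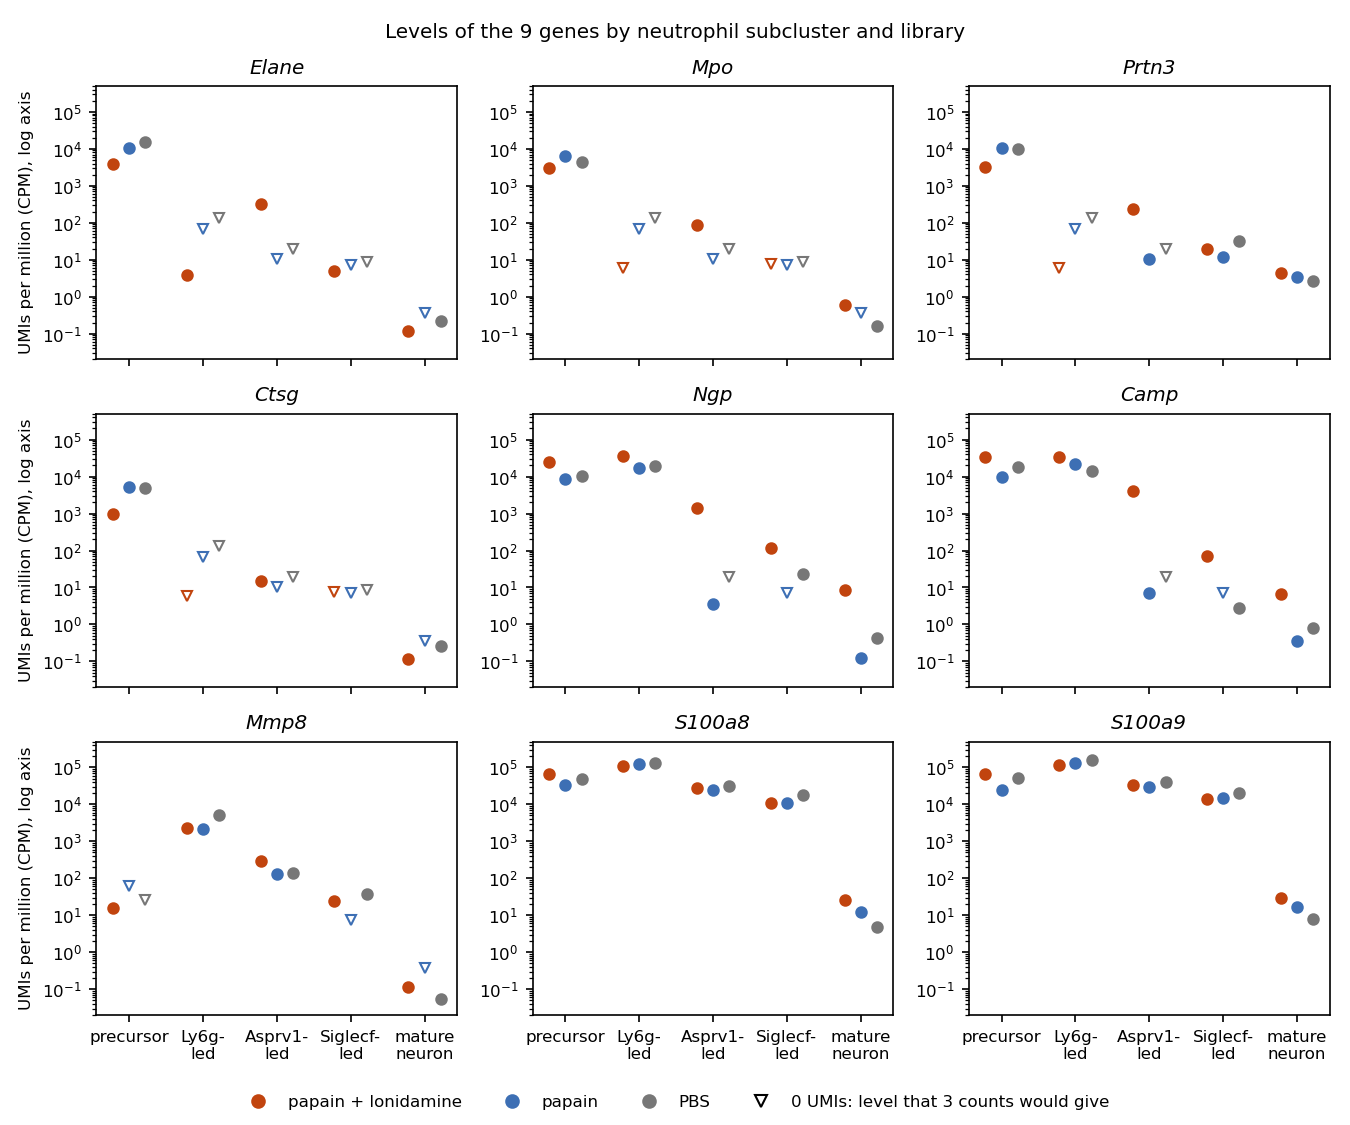
CPM on a logarithmic vertical axis for each of the 9 genes in precursors, the 3 mature subclusters with over 5 barcodes in every library (Ly6g-led, Asprv1-led, Siglecf-led) and mature olfactory neurons, for papain with lonidamine (left), papain (middle) and PBS (right). Open triangles mark 0 UMIs and stand at the level that 3 counts would give. The sets were not ordered in time. Azurophil genes are highest in precursors, and Ngp and Camp are high in precursors and the Ly6g-led subcluster. Mmp8 is highest in the Ly6g-led subcluster, at 2353, 2123 and 5107 CPM, and S100a8 does not go below 10855 CPM in the 4 neutrophil sets.

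S100a8 and S100a9 were present in precursors and in each of these mature subclusters. Pooled S100a8 was at 62278 CPM in precursors, 113653 in the Ly6g-led, 27291 in the Asprv1-led, 13058 in the Siglecf-led and 8154 CPM in the Il23a-led subcluster, and S100a9 at 62455, 120572, 33907, 16096 and 10699 CPM. The order was the same for both genes. In Ly6g-led barcodes S100a8 was at 112092 CPM with lonidamine, 123891 with papain and 128065 with PBS and was found in every one of the 166, 13 and 6 barcodes. The receptor gene Csf3r, which receives the granulopoietic cytokine G-CSF, ran in another order, at 74.7, 210, 1719, 990 and 1099 CPM in the same 5 sets, and so did the inflammatory cytokine Il1b, at 110, 1163, 13269, 13882 and 13928 CPM.

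In mature neutrophils as a whole S100a8 had 72214 UMIs with lonidamine (50669 CPM), 20278 with papain (17826 CPM) and 14098 with PBS (25761 CPM), and was detected in 93.1% [91.1, 94.7], 89.1% [86.6, 91.4] and 91.6% [87.4, 94.7] of barcodes. S100a9 had 78616, 24825 and 17136 UMIs (55161, 21823 and 31313 CPM). Over all kept barcodes, mature neutrophils held 58.6%, 87.3% and 68.5% of the UMIs of the pair, precursors 33.2%, 5.62% and 25.8%, and the Ly6g-led subcluster alone 45.1%, 21.9% and 14.0%. For Ngp and Camp together, precursors held 46.7%, 33.2% and 79.4% and the Ly6g-led subcluster 43.4%, 64.6% and 18.3%.

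**Figure D4:**
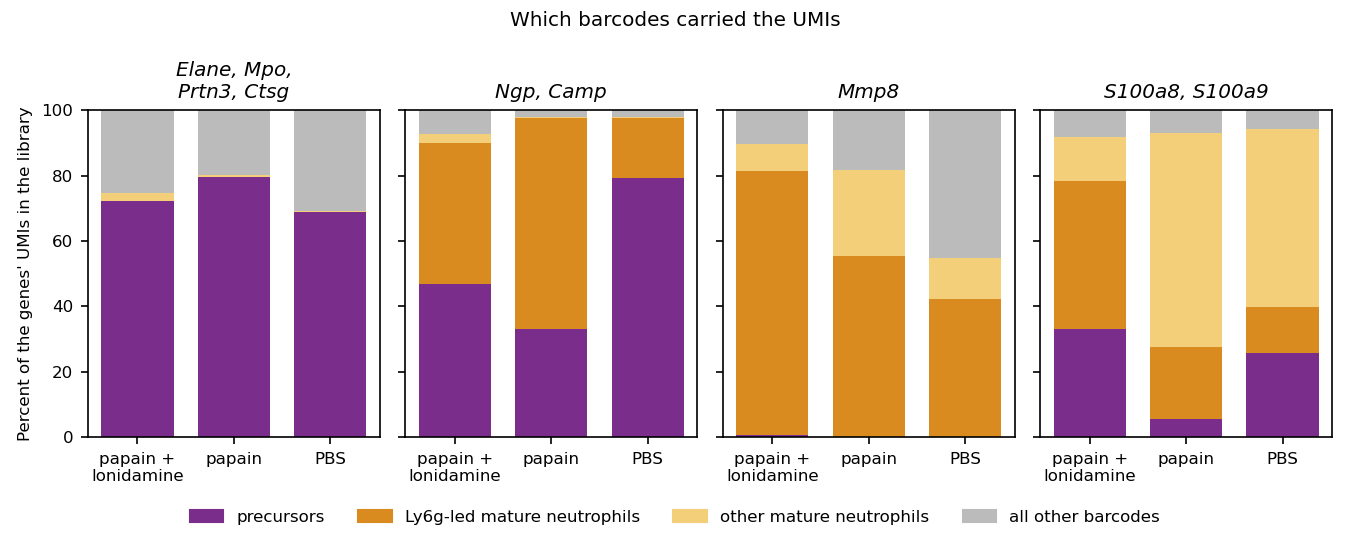
Percent of each gene group's UMIs (vertical axis, from 0) that lay in precursors, Ly6g-led mature neutrophils, other mature neutrophils and all other barcodes, for the libraries of papain with lonidamine, papain and PBS. Precursors carry most azurophil UMIs (72.1%, 79.5% and 69.0%), and the Ly6g-led subcluster carries 45.1% of the S100a8 and S100a9 UMIs with lonidamine against 21.9% with papain and 14.0% with PBS.

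The library of papain with lonidamine was set against the papain library first over all kept barcodes, a level that moves with the number of cells of a kind as well as with their content. S100a8 had 124503 UMIs with lonidamine and 23494 with papain (1465 and 283 CPM), a log2 ratio of 2.37 [2.35, 2.39]. Ngp had 36232 and 1192 UMIs (426 and 14.4 CPM, 4.89 [4.81, 4.97]) and Camp 43608 and 1544 (513 and 18.6 CPM, 4.78 [4.71, 4.86]). Elane had 3262 and 526 UMIs (2.60 [2.46, 2.73]). S100a9 was at 2.20, Mpo at 2.93, Prtn3 at 1.77, Ctsg at 1.62 and Mmp8 at 3.06. All 9 genes were at least 2-fold higher, as were 3.95% of the 25122 genes with 10 or more UMIs, and none was 2-fold lower, as were 3.08%. This contrast chose the genes, and nothing is read from that count.

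In mature neutrophils, where the same genes were scaled to the UMIs of the class, 8 of the 9 were at least 2-fold higher with lonidamine than with papain, and Ctsg had too few UMIs. The count was 5 at a clustering resolution of 2 and with at least 1000 UMIs a barcode, and 0 in male cells. In male cells S100a8 (−0.13), S100a9 (−0.15) and Mmp8 (−3.07) were lower with lonidamine on the log2 scale. The share of all genes past 2-fold was not counted in these alternatives. In the main run, 5.87% of 10471 genes were at least 2-fold higher, 7.23% were at least 2-fold lower, and the median log2 ratio was −0.16. Ngp was at 12827 CPM with lonidamine and 667 CPM with papain (4.26 [4.16, 4.37]) and Camp at 12947 and 890 CPM (3.86 [3.77, 3.95]). Mmp8 was at 917 and 123 CPM (2.89 [2.65, 3.16]) and was found in 21.5% [18.7, 24.5] and 4.92% [3.43, 6.81] of barcodes. S100a8 was 1.51 [1.48, 1.53] and S100a9 1.34 [1.32, 1.36] on the log2 scale. Elane was at least 29.8-fold and Mpo at least 7.98-fold higher against the floor of 3 counts in papain, from the single barcode described above, and without that barcode 5 genes were 2-fold higher.

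The ratios of S100a8 and S100a9 were much smaller outside the Ly6g-led subcluster. Without that subcluster, an alternative chosen after the data were seen, S100a8 was at 17113 CPM with lonidamine and 13482 CPM with papain, a log2 ratio of 0.34 [0.31, 0.38], and S100a9 was at 0.24 [0.21, 0.27]. Within the Siglecf-led subcluster S100a8 was at 10992 CPM with lonidamine and 10855 CPM with papain, 0.02 [−0.04, 0.08]. Within the Asprv1-led subcluster it was at 28437 and 23887 CPM, 0.25 [0.21, 0.30], and within the Il23a-led one at 7753 and 8467 CPM, −0.13 [−0.22, −0.03]. Ngp and Camp kept 583 and 1511 UMIs with lonidamine against 1 and 4 with papain outside the Ly6g-led subcluster, and 10 barcodes held 96.1% of the Ngp and 98.8% of the Camp UMIs. Mmp8 kept 122 UMIs against 45 (1.67 [1.18, 2.21]). In this set 5.6% of 10052 genes were at least 2-fold higher and 3.9% lower.

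Papain was set against PBS in the same way. Over all barcodes S100a8 was at 283 CPM with papain and 262 with PBS (0.11 [0.09, 0.14]) and S100a9 at 339 and 308 CPM (0.14), although mature neutrophils were 6.57% and 2.66% of the barcodes. The azurophil genes were lower with papain, Elane at 6.34 and 24.7 CPM (−1.96 [−2.10, −1.82]), Mpo at 3.79 and 9.79 CPM (−1.37), Prtn3 at 10.6 and 26.9 CPM (−1.34) and Ctsg at 3.30 and 11.6 CPM (−1.81). These 4 were at least 2-fold lower and none of the 9 was 2-fold higher, while 6.78% of 25014 genes were lower and 11.3% higher by that measure. Ngp was at −0.61, Camp at −0.74 and Mmp8 at −0.73. The precursors behind the azurophil values were 5 barcodes with papain and 8 with PBS.

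In mature neutrophils S100a8 and S100a9 were lower with papain than with PBS, at −0.53 [−0.56, −0.50] and −0.52 [−0.55, −0.49] on the log2 scale. The pair was lower within the Siglecf-led subcluster (10855 against 18026 CPM of S100a8, −0.73, and −0.50 for S100a9) and within the Asprv1-led one (23887 against 31109 CPM, −0.38, and −0.45). In the Il23a-led subcluster the pair was higher with papain than with PBS, where only 5 barcodes were counted. Mmp8 was at 123 CPM with papain and 274 CPM with PBS, −1.15 [−1.50, −0.81], the only one of the 9 past 2-fold, and −0.66 [−1.33, 0.03] without the Ly6g-led barcodes. Of 9315 genes, 7.11% were at least 2-fold lower and 10.7% higher, and of 9252 without the Ly6g-led barcodes 7.43% and 10.8%. Ngp was at −0.32, Camp at 0.57, and Prtn3, with 16 and 11 UMIs, at −0.53 [−1.71, 0.74].

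**Figure D5:**
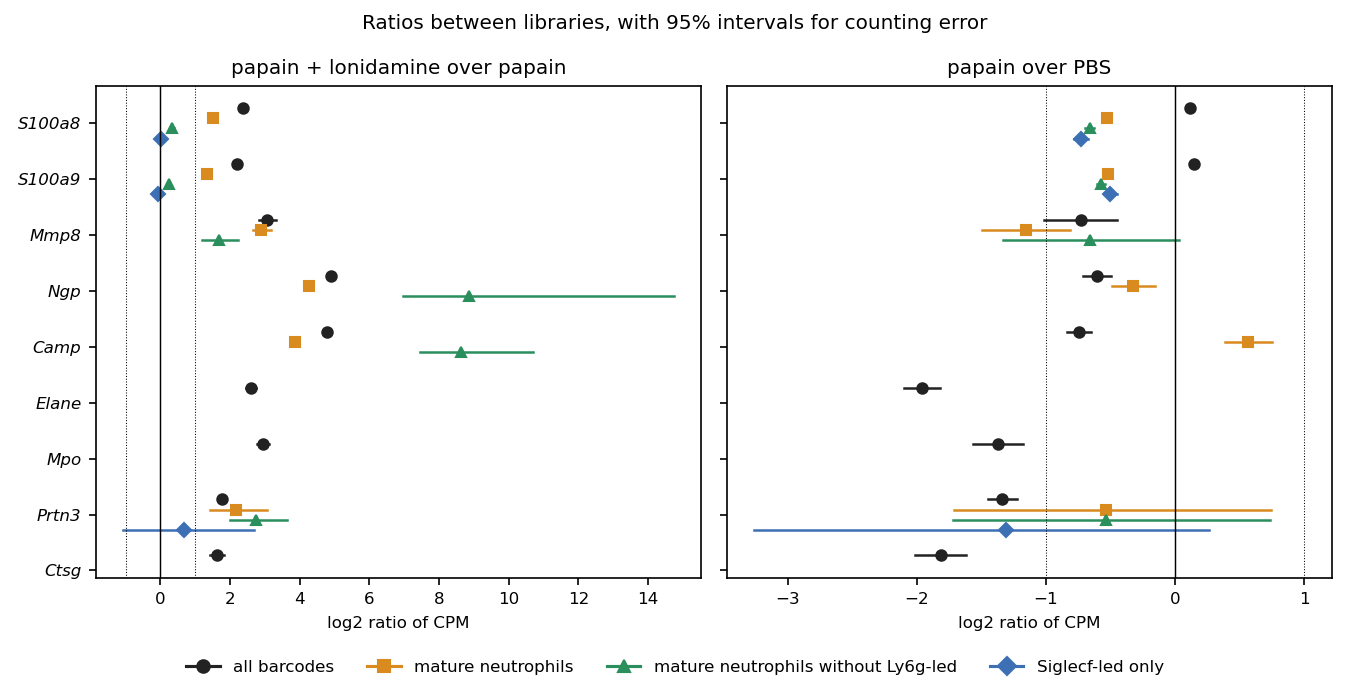
Log2 ratio of CPM (horizontal axis, different range in each panel) for papain with lonidamine over papain (left) and papain over PBS (right), with 95% intervals for counting error, over all barcodes, mature neutrophils, mature neutrophils without the Ly6g-led subcluster and Siglecf-led barcodes. Ratios with 0 UMIs in a library or under 10 in both together are not drawn, and dotted lines mark 2-fold. In the left panel S100a8 stands at 2.37 over all barcodes, 1.51 in mature neutrophils, 0.34 without the Ly6g-led ones and 0.02 in Siglecf-led ones.

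The wider lists of granule and neutrophil genes, which hold the 9 genes too, were read in mature neutrophils, counting those at least 2-fold apart among genes with 10 or more UMIs. With lonidamine against papain, 5 of 7 azurophil genes were higher and 0 lower, with a median log2 ratio of 2.45, and 10 of 11 specific granule genes, with a median of 3.20, beside the 5.87% of all genes. Without the barcode with the most Elane, 1 of 4 azurophil genes, 10 of 11 specific granule genes and 2 of 9 cell cycle genes were higher, beside 5.06% of 10316 genes. Of the 10 specific granule genes, Ngp and Camp were members chosen by this contrast. Ltf, Lcn2, Chil3, Olfm4, Cd177, Orm1 and Fcnb were markers that named the classes, as were Serpinb1a and Cebpe. The list counts here and below are thus a description only. Fcnb, a ficolin of immature neutrophils, had 127 UMIs against 1, while Hp, haptoglobin, was at 0.61. Among gelatinase and secretory granule genes 5 of 11 were higher (median 0.95), led by the oxidase subunit Cybb at 2.92. Of 6 S100 genes 3 were higher (median 0.98), with S100a11 at 0.08. None of 5 calgranulin receptor genes passed 2-fold in either direction, with Cd14 at 0.19 and Tlr4 at −0.21. Protease inhibitors gave 3 higher and 1 lower of 7, the elastase inhibitor Serpinb1a at 2.45 and Wfdc17 at −1.19. Regulators of granulopoiesis gave 2 of 8, with Cebpe at 2.61 and Csf3r at −0.50, and cell cycle genes 5 of 9, with Hmgb2 at 0.69 and Tuba1b at −0.22.

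Without the Ly6g-led barcodes the same counts were 4 of 6 azurophil, 7 of 10 specific granule, 2 of 11 gelatinase and secretory granule, 2 of 6 S100, 0 of 5 receptor, 1 of 6 inhibitor, 0 of 7 regulator and 3 of 8 cell cycle genes, beside the 5.6% of all genes given above. Leaving out the barcode with the most Elane as well gave 0 of 4 azurophil, 5 of 9 specific granule, 3 of 11 gelatinase and secretory granule, 0 of 6 inhibitor and 0 of 5 cell cycle genes, beside 4.45% of 9871 genes. With papain against PBS, the numbers higher and lower were 0 and 1 of 4 azurophil genes, where the granule membrane protein gene Cd63 was at 384 and 930 CPM, and 0 and 1 of 9 specific granule genes. They were 0 and 1 of 11 gelatinase and secretory granule genes, with the gelatinase Mmp9 at 0.80 and the formyl peptide receptor Fpr2 at 0.87, and 0 and 2 of 6 S100 genes. Receptors gave 1 and 1 of 5, inhibitors 1 and 0 of 6, regulators 0 and 1 of 7 and cell cycle genes 2 and 0 of 5. Mki67 was among these 2, with 178 UMIs against 7, in libraries with 229 and 5 Il23a-led barcodes. Beside the 10.7% of all genes that were higher and 7.11% that were lower, nothing is read from these small counts.

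Free RNA was judged in mature olfactory neurons, a cell type not known for these genes. S100a8 was detected in 13.9% [12.2, 15.9] of 1400 neurons with lonidamine, 3.76% [2.77, 4.99] of 1222 with papain and 3.25% [2.61, 4.00] of 2646 with PBS, at 26.1, 12.5 and 4.82 CPM and median depths of 6341.5, 6678 and 7153 UMIs. Thinned to 1000 UMIs a barcode, the shares were 3.70%, 0.870% and 0.475%, beside 93.0%, 88.0% and 85.6% of mature neutrophils. S100a9 was detected in 14.4%, 5.40% and 5.29% of the neurons, Ngp in 4.93%, 0.0818% and 0.302%, and Camp in 3.93%, 0.245% and 0.567%. Azurophil genes other than Prtn3, and Mmp8, were found in at most 0.357% of neurons in any library.

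The ratio of Ngp to S100a8 in neurons differed between the libraries. For each S100a8 UMI there were 0.320 Ngp UMIs in mature and 0.324 in immature olfactory neurons of the lonidamine library, beside 0.291 over all its kept barcodes. With PBS the same ratios were 0.0889, 0.0833 and 0.0835, and with papain, where the neurons held 1 Ngp UMI in each class, 0.00971, 0.00629 and 0.0507. By Ngp, the neurons were thus close to their whole library with lonidamine and with PBS, where they held 8 and 5 Ngp UMIs. Other ratios were less close. Camp for each S100a8 UMI was 0.252 and 0.273 in mature and immature neurons with lonidamine, beside 0.350 in the library. With PBS it was 0.167 and 0.150 beside 0.119. S100a9 for each S100a8 UMI was 1.09 and 1.41 beside 1.07 with lonidamine, and 1.63 and 1.57 beside 1.17 with PBS. Over all barcodes outside the neutrophils S100a8 was found in 16.2%, 5.34% and 4.66% with lonidamine, papain and PBS, not far above the neuron shares, and detections at the neuron level are not read as expression. Erythroid barcodes held 1171, 0 and 0 UMIs of S100a8, over 89, 6 and 3 barcodes, and 1151 of the 1171 lay in 1 barcode.

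Over 73 points, each a class in a library with at least 20 barcodes, the genes most like S100a8 by Pearson's correlation of log2(CPM + 1) were S100a9 (0.979), Retnlg (0.896), Rab44 (0.894), Mmp9 (0.892) and Wfdc21 (0.891). Those most like Ngp were Camp (0.959), Fcnb (0.859), 4930438A08Rik (0.787), Itgb2l (0.783) and Krt81 (0.719). For Elane they were Ctsg (0.898), Ms4a3 (0.896), Mpo (0.882), Prtn3 (0.761) and Fcnb (0.738), while Elane and S100a8 gave 0.426. With 80, 5 and 8 precursor barcodes, only the precursors of the lonidamine library formed a point, so the Elane values lean on that point. Retnlg, Mmp9, Fcnb, Itgb2l and Ms4a3 were also among the markers that named the classes. The points of a library share its depth and its free RNA, and the values are a description.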

How the data were processed

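Nasal mucosa was digested and captured with 10x Genomics 3′ chemistry, per the labels' protocols. The deposited values are raw UMI counts per gene and barcode, without normalization, per the file headers. They came from Cell Ranger, version 7.1.0 per the file headers and 2.1.1 per the submitters' processing notes, which name build GRCm39. All 3 deposited matrices were used, with 12598, 11071 and 9740 barcodes for papain with lonidamine, papain and PBS. The members and gene lists were chosen with earlier results of these data known.

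Barcodes with at least 500 UMIs, at least 200 genes and no more than 20% mitochondrial UMIs were retained, and 262, 188 and 137 doublets marked by Scrublet were removed. With scanpy 1.11.5, 2000 variable genes without the 9 members, 40 components and 20 neighbours were clustered (leidenalg 0.10.2, resolution 1, seed 0), and neutrophil clusters again at 0.5. A marker counted at 10% of a cluster and 3-fold over other cells, and a name needed 3 markers. A cluster with a median depth more than 3-fold below that of its libraries and no marker among its 10 leading genes stayed unnamed, except that such subclusters of mature neutrophils kept their parent's class. UMIs were summed per class and library and divided by the class total (CPM). Ratios had 0.5 counts added, with conditional binomial intervals. With 1 library per group no test was made. On simulated counts, 99.5% of genes changed 4-fold were called among 10508 genes (lonidamine against papain) and 100% among 9258 (papain against PBS). These class sums were drawn with counting error alone. They hold no spread between barcodes or mice, so the rates do not bear on how far the ratios would repeat. List genes named in the text were among the 2 highest and 2 lowest ratios with at least 50 UMIs, and other genes beside the 9 were named after their values were seen. Sex was taken from Xist and 4 Y-linked genes. Alternatives were the clustering with the members, resolution 2, 1000 UMIs, doublets kept, other scalings, 1 count added, free RNA subtracted, no count filter and each sex.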

Additional observations from a re-analysis of the deposited data

Results flagged for a closer look

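Effects with opposite signs in the sexes were seen in mature neutrophils for lonidamine against papain. S100a8 had a log2 ratio of 2.16 in female cells (242 and 221 barcodes) and −0.13 in male cells (49 and 41 barcodes), S100a9 1.98 and −0.15, and Mmp8 3.84 and −3.07. For papain against PBS, Mmp8 was at −1.47 in female and 2.45 in male cells. The male Mmp8 values rest on 1 UMI with lonidamine, 9 with papain and 2 with PBS. All 88 Ly6g-led barcodes of assignable sex in the lonidamine library were female, and the difference between the sexes was not tested.

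Signal above the PBS level was seen in barcodes that filtering had left out. S100a8 and S100a9 together stood at 2439 CPM in 711 such barcodes with lonidamine and 549.8 CPM in 547 with papain, against 73.3 CPM in 362 with PBS. Ngp and Camp stood at 519 CPM with lonidamine, against 0.305 CPM with papain and 1.24 CPM with PBS, and Mmp8 at 15.6 CPM with lonidamine, against 0.305 and 2.88 CPM. These barcodes held 3.80%, 3.37% and 0.389% of the deposited S100a8 and S100a9 UMIs.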

How the results depend on the processing

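No paired analysis was possible because each group is 1 pooled library. Of 415 values under alternatives, 258 stayed close to the value reported, 148 moved and 9 changed sign. For lonidamine against papain, the count of members 2-fold higher in mature neutrophils (8) was 5 at resolution 2, at 1000 UMIs, in female cells and without the barcode with the most Elane, and 0 in male cells. The count 2-fold lower (0) was 1 in each sex. Over all barcodes, male cells gave 4 higher and 1 lower. For papain against PBS in mature neutrophils, the count 2-fold lower (1) was 0 at resolution 2, in male cells, without Ly6g-led barcodes and without Siglecf-led and Il23a-led barcodes, and 2 in female cells, and the count higher (0) was 1 in male cells. Over all barcodes 7 were lower in male cells. In each sex, and at other settings with no share of all genes given above, that share was not counted, so nothing is read from these counts.

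Signs changed for lonidamine against papain in mature neutrophils for S100a8 (−0.13), S100a9 (−0.15) and Mmp8 (−3.07) in male cells, and for Prtn3 at 1000 UMIs (−0.77), in female cells (−1.19) and without the barcode with the most Elane (−0.80). Over all barcodes Prtn3 (−0.14) and Mmp8 (−1.002) changed sign in male cells. For papain against PBS Mmp8 did so in male cells (2.45).

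Precursors were 0.841% of barcodes with lonidamine and 0.114% with papain when the members took part in clustering, where PBS had 15 barcodes (0.160%) in place of 8, and 14 (0.149%) at resolution 2. At 1000 UMIs they were 0.853% with lonidamine and 0.19998% with PBS (18 of 9001 barcodes). The share of azurophil UMIs in precursors, for lonidamine, papain and PBS, was 84.6%, 82.5% and 86.8% with the members in clustering, and 65.4%, 70.4% and 54.2% at resolution 2. It was 80.4% with lonidamine and 54.3% with PBS at 1000 UMIs, and 53.9% with PBS with doublets kept. The share of S100a8 and S100a9 UMIs in mature neutrophils was 52.0%, 59.5% and 46.9% at resolution 2, where the Siglecf-led cluster stayed unnamed, having low depth and no marker among its 10 leading genes. It was 54.2%, 85.7% and 65.0% at 1000 UMIs, 56.7%, 86.4% and 70.5% with doublets kept, and 86.9% with papain and 67.7% with PBS with the members in clustering. Apart from that cluster and the barcodes left out by construction, the cause of these moves was not tested. The free RNA shares in neurons kept close to the values reported in every alternative run. Depth limits the papain and PBS precursors, with 5 and 8 barcodes, and male neutrophils, with at most 49 a library.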
